A study of Mus musculus with 9 samples.

Results

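The genes described here encode the machinery that attaches the small ubiquitin-like protein Isg15 to other proteins and removes it again. They are the modifier Isg15, its activating enzyme (E1) Uba7, its conjugating enzyme (E2) Ube2l6, the ligase (E3) Herc6 and the deconjugating protease Usp18. The members were chosen by name, each as the gene symbol in a table of FPKM, the fragments of a gene per kilobase of its exons, scaled to the library total. All 5 members were among its 31167 genes. The table came from RNA sequencing of primary renal tubular epithelial cells of C57BL/6 mice, in 3 groups of 3 libraries.

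The Sham cells were the untreated controls. The H/R cells went through hypoxia and reoxygenation, with 6 h at 1.0% oxygen in medium without glucose and then 18 h in complete medium. The EGR1OV cells were transfected, with a lipid reagent, with an expression plasmid in which a cytomegalovirus promoter drives the transcription factor Egr1. The labels give neither an oxygen condition nor a time after transfection for these cells. For the sequenced groups the paper lists H/R and the plasmid as separate treatments, whereas its general methods describe transfection ahead of hypoxia and reoxygenation. No group with an empty plasmid was among the 3, so an effect of Egr1 and an effect of the transfected DNA or the reagent cannot be told apart. The labels do not say whether the 3 libraries of a group came from separate animals or cultures. The p-values therefore measure the spread between these libraries, which may be technical.

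Isg15 conjugation is a short enzyme cascade that resembles ubiquitination. Uba7 activates Isg15, Ube2l6 takes it over, and a ligase such as Herc6, the main Isg15 ligase in mice, passes it to lysines of target proteins, many of them newly made. Usp18 cuts Isg15 off its targets and also binds the interferon receptor subunit Ifnar2, where it dampens signalling, and all of these genes are known targets of type I interferon.

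The members lie on 4 chromosomes of GRCm38, and all are protein-coding. Isg15 (ENSMUSG00000035692) spans chr4:156199424-156200818 on the minus strand, and the other members are on the plus strand. Uba7 (ENSMUSG00000032596) spans chr9:107975505-107984060, and Ube2l6 (ENSMUSG00000027078) spans chr2:84798828-84810335. Herc6 (ENSMUSG00000029798) lies at chr6:57581000-57664632 and Usp18 (ENSMUSG00000030107) at chr6:121245906-121270917. Genes that overlap Uba7, Herc6 and Usp18 reached at most 0.0825, 0.484 and 0.196 FPKM in any library. RefSeq promoter windows (GRCm38.p6) were matched to 4 of the 5 members, all but Usp18. Each of these 300-base windows was searched on both strands for the core of the interferon-stimulated response element, through which type I interferon acts on promoters, for the gamma-activated site and for the Egr1 motif. The 250 bases upstream of the start are shown for the 3 members with a match, because they are the windows in which the letters of an interferon or Egr1 motif occur, with the matches in capitals. They lie at chr4:156200819-156201068 (minus strand), chr9:107975317-107975566 (plus strand) and chr2:84798578-84798827 (plus strand).
Isg15: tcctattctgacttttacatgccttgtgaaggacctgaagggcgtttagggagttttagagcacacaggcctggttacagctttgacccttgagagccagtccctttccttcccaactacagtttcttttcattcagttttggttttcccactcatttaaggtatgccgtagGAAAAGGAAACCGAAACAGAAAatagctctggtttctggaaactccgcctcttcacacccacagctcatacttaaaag
Uba7: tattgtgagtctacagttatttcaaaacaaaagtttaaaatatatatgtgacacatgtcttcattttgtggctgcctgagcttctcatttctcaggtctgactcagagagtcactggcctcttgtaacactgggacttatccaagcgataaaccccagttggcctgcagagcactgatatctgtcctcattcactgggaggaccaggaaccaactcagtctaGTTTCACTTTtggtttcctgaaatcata
Ube2l6: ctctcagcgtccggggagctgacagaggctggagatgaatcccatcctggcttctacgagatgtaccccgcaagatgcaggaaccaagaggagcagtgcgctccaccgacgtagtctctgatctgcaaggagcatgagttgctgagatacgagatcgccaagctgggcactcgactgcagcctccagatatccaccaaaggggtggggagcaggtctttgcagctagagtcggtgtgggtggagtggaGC

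The capitals in the Isg15 window cover 3 overlapping matches to the core of the response element, which repeats the letters GAAA with any 2 bases between the copies, the first starting 78 bases before the start. This motif was in 3.44% of the 32851 promoter windows. A second form, the same pattern shifted downstream by 1 base and ended by a C, was chosen after the sequences were read, overlaps the first form in Isg15 and was in 2.24% of windows. Its match in Uba7, on the other strand, begins 28 bases before the RefSeq start. The Uba7 window ends at 107975566, inside the gene span given above, which begins at 107975505. The end of that window and the match in it therefore lie within this span. The Egr1 motif GCGNGGGCG (CGCCCNCGC on the other strand) was in 5.55% of windows and, among the members, in Ube2l6 only, where its match starts at the last 2 bases shown and runs across the transcription start. The gamma-activated site TTCNNNGAA, which reads the same on the other strand, was in 8.3% of windows and in none of the 4 searched here, and the Herc6 window had no match to any of the motifs. Unlike in the other windows, the first bases after its start were not found as a run in a GENCODE transcript of the gene, so the 2 annotations place that start differently. A match describes these letters and is neither a bound site nor a cause.

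Between 16183617 and 18384022 reads per library were recovered from the FPKM steps, a 1.14-fold range, so depth differed little. Egr1 itself stood at 45.7, 42.2 and 40.1 FPKM in EGR1OV, against 6.20, 6.91 and 6.09 in Sham libraries and 8.57, 7.59 and 7.48 in H/R libraries. Its log2 change was 2.56 in EGR1OV against Sham (limma, adjusted p = 2.19e-09) and 0.26 in H/R (adjusted p = 0.0348). The 16 tubule markers in the table summed to 1340 to 1450 FPKM in EGR1OV, against 2030 to 2070 in Sham libraries and 1890 to 1970 in H/R libraries, and the loop marker Umod was at 0 in every library. The 14 leukocyte markers summed to 31.4 to 35.3 FPKM in EGR1OV, against 153 to 158 in Sham libraries and 129 to 135 in H/R libraries, and 8 of the 9 tested were lower in EGR1OV than in Sham. The 7 endothelial markers summed to 8.34 to 8.71, 11.2 to 12.1 and 11.9 to 12.5 FPKM and the 7 fibroblast markers to 40.4 to 45.0, 35.6 to 37.3 and 43.1 to 44.0, in the same order of groups. In bulk RNA, fewer cells of a type and less RNA per cell cannot be told apart. The part of these shifts in the members' values was not tested.

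The first comparison asked how the Isg15 machinery stood in cells overexpressing Egr1. All 5 members were higher in EGR1OV than in Sham, by 15.2-fold (Uba7) to 179-fold (Isg15) in the ratio of mean FPKM. A gene was called when its limma adjusted p was under 0.05 and it changed at least 1.3-fold on the log2(FPKM + 1) scale. Of the 13985 genes tested, 9.87% were called higher and 6.51% lower, 16.4% in all. The libraries of the 2 groups did not overlap for any member, nor for 55.7% of all genes tested.

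Isg15, the modifier, stood at 4.02, 7.59 and 2.96 FPKM in the Sham libraries and at 835, 887 and 885 in the EGR1OV libraries. The mean rose from 4.86 ± 2.42 to 869 ± 29.5 FPKM (SD, n = 3), and even the lowest EGR1OV library was 110-fold above the highest Sham library. The log2 change was 7.29 (SE 0.221, adjusted p = 7.24e-09), rank 2 among the rises of all genes tested.

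Uba7, the E1 that starts the cascade, stood at 0.972, 1.16 and 0.896 FPKM in Sham and at 14.3, 16.3 and 15.3 in EGR1OV. Every EGR1OV library was at least 12.4-fold above every Sham library, and the log2 change was 3.02 (SE 0.064, adjusted p = 5.02e-10). Ube2l6, the E2, moved from 1.40, 2.07 and 1.97 FPKM to 96.7, 98.4 and 105. Its mean rose 55.1-fold, from 1.81 ± 0.361 to 99.9 ± 4.12 FPKM (SD, n = 3), with a log2 change of 5.17 (SE 0.089, adjusted p = 1.4e-10).

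Herc6, the ligase, was the member of lowest level in both groups, at 0.458, 0.389 and 0.489 FPKM in Sham and 10, 9.78 and 9.47 in EGR1OV. Herc6 averaged 0.445 FPKM in Sham and 0.389 in H/R. It therefore passed the filter for testing, a mean of 0.5 FPKM over the 9 libraries, only through EGR1OV. The ratio of means was 21.9 and the log2 change was 2.90 (SE 0.062, adjusted p = 5.55e-10). Usp18, the protease that removes Isg15, stood at 0.894, 1.93 and 1.09 FPKM in Sham and 165, 169 and 173 in EGR1OV. Its mean rose 130-fold, from 1.3 ± 0.553 to 169 ± 4.24 FPKM (SD, n = 3), with a log2 change of 6.23 (SE 0.131, adjusted p = 4.93e-10). An exact two-sided permutation test of each member gave p = 0.1, the smallest that 3 against 3 libraries allow.

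**Figure D1:**
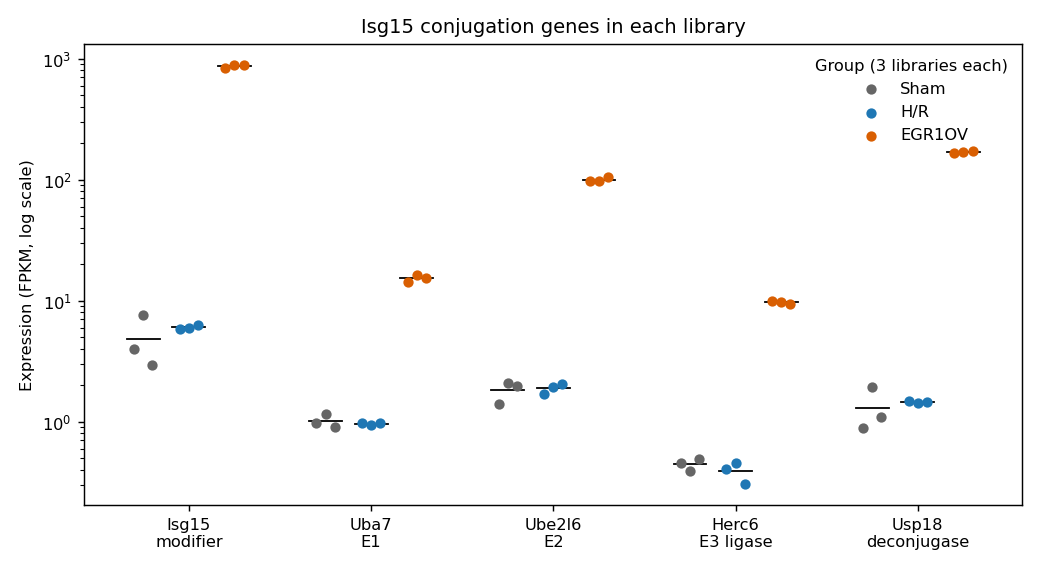
FPKM of each member in the 9 libraries on a log axis, with points for libraries and bars for group means. The EGR1OV libraries lie above all Sham and H/R libraries for every member, while the Sham and H/R libraries overlap, and the Sham points of Isg15 spread from 2.96 to 7.59 FPKM.

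The order of Uba7 and Herc6 depended on the scale. With 1 added to every FPKM, Uba7 had the larger log2 change, whereas Herc6 had the larger ratio of means. On recovered reads, where voom adds a much smaller amount before logs are taken, it gave log2 changes of 7.57 for Isg15, 7.07 for Usp18, 5.79 for Ube2l6, 4.45 for Herc6 and 3.92 for Uba7. The reads behind the Sham values were few, from 41 to 94 for Usp18 and from 37 to 100 for Isg15, against 7640 to 8140 and 10486 to 11260 in EGR1OV. A Poisson 95% interval, which covers counting error only, ran from 37.1 to 65.9 reads for Isg15 in Sham library 1, from 81.4 to 122 in library 2 and from 26.1 to 51.0 in library 3.

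**Figure D2:**
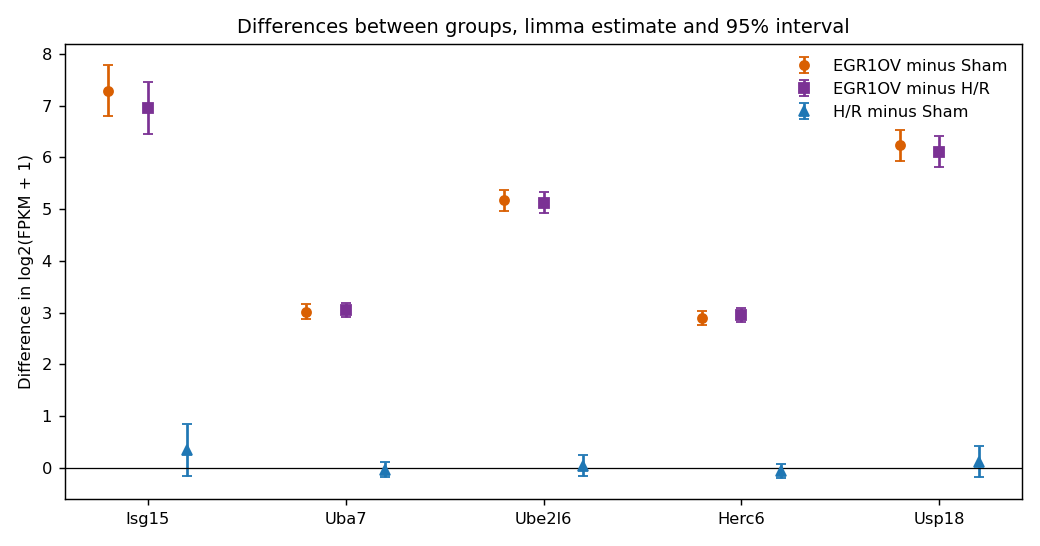
Change of each member on the log2(FPKM + 1) scale in the 3 comparisons, with points for limma estimates and lines for 95% intervals. Changes against Sham in EGR1OV run from 2.90 for Herc6 to 7.29 for Isg15, and all H/R intervals include 0.

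The members also changed relative to one another. In Sham the order of mean FPKM was Isg15, Ube2l6, Usp18, Uba7 and Herc6, and the ranges of neighbouring members overlapped between Ube2l6 and Usp18 and between Usp18 and Uba7. In EGR1OV the order was Isg15, Usp18, Ube2l6, Uba7 and Herc6, with no overlap between neighbours. FPKM is per length, so the enzymes' levels were set against that of Isg15 in the same library, as percent of its FPKM.

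Uba7 stood at 23.2% ± 7.53 of the Isg15 level in Sham and at 1.76% ± 0.0682 in EGR1OV (SD, n = 3). Ube2l6 went from 42.9% ± 20.8 to 11.5% ± 0.367, and Herc6 from 11% ± 5.69 to 1.12% ± 0.0679. The activating, conjugating and ligating enzymes were thus each lower relative to Isg15 in every EGR1OV library than in any Sham library, although their own levels rose. Isg15 had rank 2 among the rises of all genes tested, so almost any gene set against it would fall. The fall is therefore not particular to these enzymes, and such ratios were not taken for other genes. Usp18 kept closest to Isg15. It stood at 22.2%, 25.5% and 36.6% of the Isg15 level in Sham libraries and at 19.7%, 19.1% and 19.6% in EGR1OV libraries. The H/R libraries, at 25.2%, 24.2% and 23.2%, overlapped those of Sham, and the EGR1OV values were below all others. The differences in log2 ratio, EGR1OV against Sham, were -3.67 for Uba7, -3.14 for Herc6, -1.79 for Ube2l6 and -0.50 for Usp18. That of Usp18 was -0.29 without Sham library 3, and it was -1.06 with 1 added to each FPKM. Each of the 4 had an exact permutation p = 0.1, adjusted to 0.15 over the 12 ratio tests, and so none can pass 0.05 in this design.

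**Figure D3:**
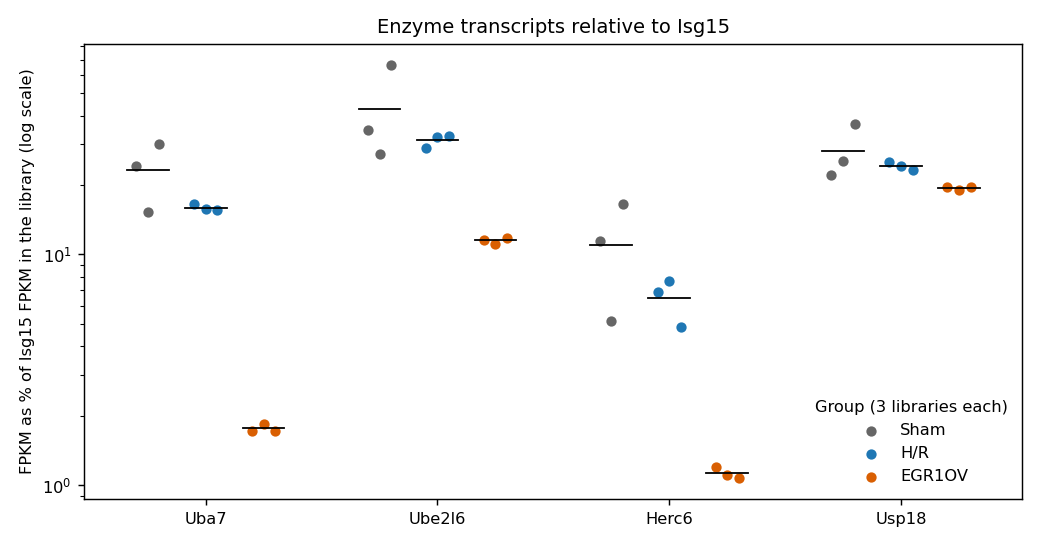
FPKM of each enzyme as percent of the Isg15 FPKM in the same library, on a log axis, with points for the 9 libraries and bars for group means. EGR1OV libraries lie lowest for all 4 enzymes, from 1.12% on average for Herc6 to 19.5% for Usp18.

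The same cells were set against the H/R cells, with 11.9% of all genes tested called higher in EGR1OV and 6.94% lower, 18.9% in all. All 5 members were called higher in EGR1OV. The log2 changes were 6.95 for Isg15, 6.11 for Usp18, 5.13 for Ube2l6, 3.05 for Uba7 and 2.96 for Herc6, and the largest adjusted p was 1.04e-08. In ratios of mean FPKM this ran from 15.9 for Uba7 to 144 for Isg15. The comparisons of each group with Sham share the 3 Sham libraries, and those of EGR1OV share the EGR1OV libraries.

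Hypoxia and reoxygenation were compared with Sham to ask whether injury alone moved the machinery. None of the 5 members was called in H/R by limma, at an adjusted p under 0.05 and at least a 1.2-fold change, where 4.25% of all genes tested were called, 1.6% higher and 2.65% lower. None had an unadjusted p under 0.05, beside 28% of all genes tested, and voom on recovered reads also called 0 members, beside 7.16% of all genes. The H/R and Sham libraries overlapped for all 5, whereas they did not for 33.6% of all genes tested.

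Isg15 stood at 5.88, 5.97 and 6.26 FPKM in H/R, inside the Sham range. Its log2 change was 0.34 with a 95% interval from -0.16 to 0.84 (adjusted p = 0.354), so the interval reached well above 0. Uba7 stood at 0.970, 0.943 and 0.977 FPKM and changed by -0.03 (interval -0.175 to 0.11). Ube2l6 stood at 1.70, 1.93 and 2.03 FPKM and changed by 0.045 (interval -0.155 to 0.245).

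Herc6 stood at 0.406, 0.457 and 0.303 FPKM, with a change of -0.06 (interval -0.20 to 0.08). Usp18 stood at 1.48, 1.44 and 1.45 FPKM, with a change of 0.12 (interval -0.175 to 0.42, adjusted p = 0.596). The intervals were narrowest for the E1 and E3 and widest for Isg15 and its protease, the members whose Sham libraries differed most. Adding 1 to each FPKM also narrows the intervals of low members. Herc6 had the largest coefficient of variation of the members over the H/R libraries, 20.1%. Its change was -0.205 by voom on recovered reads (adjusted p = 0.477).

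For Isg15 and Usp18, Sham library 2 stood above the other Sham libraries. It held the highest Sham value of 4 of the 5 members, all but Herc6, and of 30.7% of all genes tested. The coefficient of variation of Isg15 was 49.9% over the Sham libraries, but 3.29% over those of H/R and 3.39% over those of EGR1OV. Of 7408 genes with a mean of 1 to 10 FPKM in Sham, 2.11% varied at least as much as Isg15 and 2.89% at least as much as Usp18, whose coefficient was 42.4%. The summed leukocyte markers stood at 153, 157 and 158 FPKM in Sham libraries 1, 2 and 3, and the source of the spread was not tested.

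Leaving out Sham library 2 changed the calls for the modifier and its protease. Without it, Isg15 was called higher in H/R, with a log2 change of 0.66 (adjusted p = 0.00715), as was Usp18, with 0.31 (adjusted p = 0.0126). Over the 9 fits that each left out 1 library, the change of Isg15 ran from 0.10 to 0.66 and its adjusted p from 0.00715 to 0.785. Uba7, Ube2l6 and Herc6 were called in none of these fits, and their changes in H/R lay between -0.094 and 0.112.

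**Figure D4:**
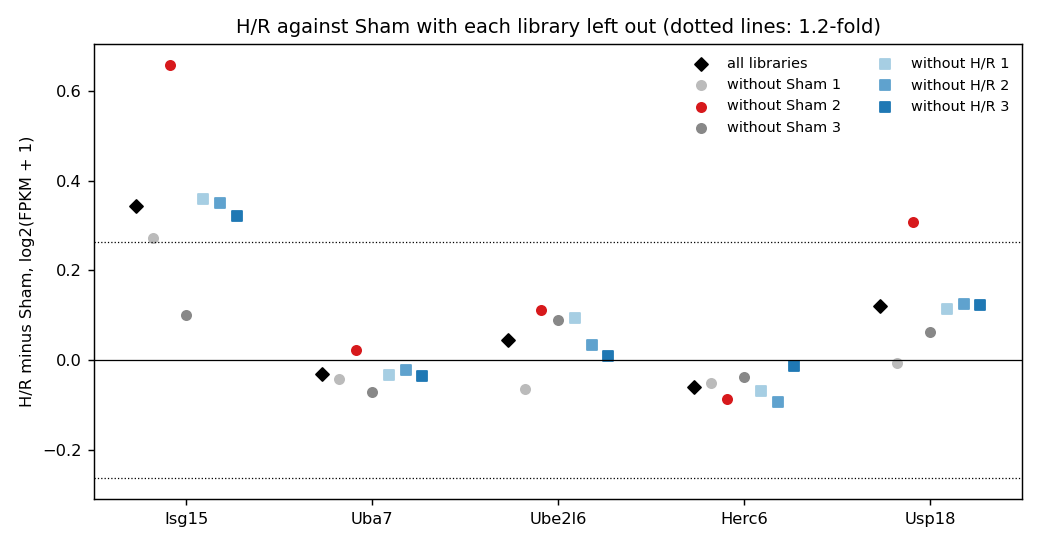
Log2 change of each member in H/R against Sham with all libraries and with each Sham or H/R library left out in turn, on the log2(FPKM + 1) scale, with dotted lines at 1.2-fold. Without Sham library 2 the changes of Isg15 (0.66) and Usp18 (0.31) pass the call rule, and in every other fit shown no member does.

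Related genes were then described to see how far the change reached beyond the 5 members. Of 15 further enzymes and partners of Isg15, 14 were tested and Usp2 was below the expression filter. In EGR1OV against Sham, 3 were called higher and 2 lower, beside 9.87% and 6.51% of all genes tested. Their median log2 change was 0.036, beside 0.017 over all genes tested. Trim25, a ligase and target of Isg15, rose from 7.72 ± 0.937 to 44.5 ± 2.78 FPKM (SD, n = 3), a log2 change of 2.39 (adjusted p = 1.29e-08). The autophagy receptor Sqstm1 rose by 0.91 and the co-chaperone Bag3 by 0.43. The integrin subunits Itgb2 and Itgal together form the receptor for secreted Isg15 and are made by leukocytes. They fell by 0.81 and 0.54, in the libraries where the summed leukocyte markers were lowest, and a link was not tested. The ligase Arih1, also known to act with Isg15, stood at 24.0 FPKM on average in both groups (adjusted p = 0.927).

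In the other ubiquitin-like systems, 44 genes were tested, and 5 were called higher and 1 lower in EGR1OV than in Sham, with a median of 0.028. The share called was no larger than the 16.4% over all genes tested, so the list did not stand out in number. The genes named next are single members of it. The ubiquitin gene Ubb was higher by 0.80, and Ubd, which encodes the ubiquitin-like modifier Fat10, by 1.74. Ubd had 0, 0 and 1 reads in Sham and 27, 40 and 47 in EGR1OV. It is among the 5 called higher, and it passed the filter for testing only through EGR1OV. Uba6, the E1 that serves Fat10 and ubiquitin, fell by 0.51. Of the 4 paralogs of the members set beside them, 1 was called. Uba1, the ubiquitin E1, had a log2 change of 0.12 (139 to 151 FPKM on average, adjusted p = 0.00273), below the fold needed. Ube2l3, the E2 nearest to Ube2l6, had 0.07 (adjusted p = 0.366) and the ligase Herc4 had -0.03 (adjusted p = 0.519). Herc3, a ligase of the same family, was called, with 0.49 (adjusted p = 0.000127).

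Of 13 interferon signalling genes, 10 were called higher and none lower in EGR1OV than in Sham, with a median of 1.17. Over all genes tested, 9.87% were called higher and 6.51% lower. Irf7, a transcription factor of the interferon response, rose from 0.823 to 223 FPKM on average, a log2 change of 6.95. Stat2 and Irf9, transcription factors that act on the interferon-stimulated response element, rose by 4.08 and 2.17. The receptor subunit Ifnar2, to which Usp18 binds, rose by 0.385 (7.24 to 9.76 FPKM, adjusted p = 0.00134), whereas Ifnar1 had -0.10 and was not called. Ifnb1, which encodes interferon beta, was listed at 0 in all 6 Sham and H/R libraries and had 38, 37 and 24 reads in EGR1OV. It is among the 10 called higher, and it passed the filter for testing only through EGR1OV.

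Against H/R, 3 genes were called higher and 2 lower in EGR1OV among the 14 tested further Isg15 enzymes and partners. The counts were 6 and 1 among the 44 other ubiquitin-like genes and 10 and 0 among the 13 of interferon signalling. Over all genes tested, 11.9% were called higher and 6.94% lower, 18.9% in all. The ubiquitin-like list did not exceed that total share. The medians of the 3 lists were 0.056, 0.072 and 0.77, beside 0.055 over all genes. The additional ubiquitin-like gene was Atg10, an E2-like enzyme of autophagy, with 0.40. In H/R against Sham, limma called 0 genes of these 3 lists, beside 4.25% of all genes tested. The medians were -0.052, -0.037 and -0.002 beside -0.03 over all genes. At an unadjusted p under 0.05 there were 3 of 14, 13 of 44 and 3 of 13 genes, beside 28% of all genes tested. Voom called 0, 1 and 2, beside 7.16% of all genes.

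**Figure D5:**
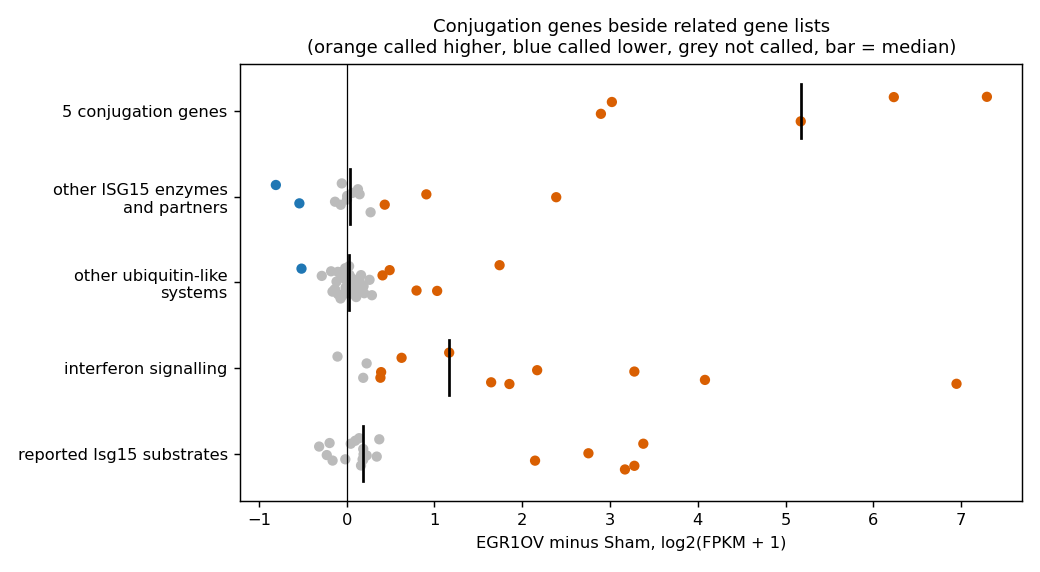
Changes in EGR1OV against Sham on the log2(FPKM + 1) scale for the 5 members and the tested genes of 4 related lists, with points for genes (orange called higher, blue called lower, grey not called) and bars for medians. The interferon signalling genes have a median of 1.17 and the other ubiquitin-like systems one of 0.028.

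Across the 9 libraries, the log2(FPKM + 1) values of the member pairs had Pearson r from 0.9928 (Isg15 and Herc6) to 0.9991 (Ube2l6 and Usp18). These values share the split between EGR1OV and the other libraries and describe no more than that. Among the 7587 or 7588 genes averaging 5 FPKM or more, the genes most like Isg15 were Ifit3b, Usp18 and Gm20559, and those most like Usp18 were Ddx58, Dtx3l and Ifi44. The closest to Uba7 were Dtx3l, Adar and Parp12, to Ube2l6 Ifih1 and H2-Q5, and to Herc6 Cp, Tmem106a and Gbp3. Between 203 and 258 genes reached r of 0.99 with a given member.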

How the data were processed

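RNA was sequenced from 9 libraries of mouse renal tubular epithelial cells (3 per group). The authors deposited FPKM values per gene. The submitters' processing notes name Bowtie2 2.2.3, HISAT2 2.1.0, TopHat2 and the build mm9, with no role given, whereas 94.7% of the gene positions in the table equal those of GENCODE M21 (GRCm38), whose coordinates are used here. The counting tool and the strand setting are not given in the sources used here. Of the gene identifiers 99.8% were in GENCODE M21, and 26 symbols that had turned into dates were restored by identifier.

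The 13985 genes averaging 0.5 FPKM or more across the libraries were tested on log2(FPKM + 1) with limma 3.58.1 (R 4.3.3), with 3 groups in 1 fit and Benjamini-Hochberg adjustment. Herc6, Ubd, Ifnb1 and Mx1 averaged under 0.5 FPKM in Sham and in H/R, so they passed this filter only through EGR1OV. The log2(FPKM + 1) scale understates changes of low genes. The call rule was an adjusted p under 0.05 with a 1.3-fold change (comparisons with EGR1OV) or a 1.2-fold change (H/R against Sham). Exact permutation tests of single members were two-sided. These 15 exact permutation tests gave p = 0.1, adjusted to 0.15, for each comparison with EGR1OV, and p from 0.4 to 0.9 for H/R against Sham. Whole reads were recovered from the FPKM steps, with 94.0% of 162948 values of 1 to 1000 reads within 0.02 of a whole number, and were tested with voom, an alternative chosen after seeing the data, as was adding 1 before the ratios to Isg15 were taken. Poisson intervals cover counting error only. Replicate pairs differed beyond sampling noise (chi-square per degree of freedom 2.03 to 3.83), so none were merged. The fit was also run on simulated data with less spread between libraries than these replicate pairs have, so that run does not give its error rate here. Scripts ran in Python 3.11.15 with pandas 2.3.3 and scipy 1.17.1, and promoter windows came from RefSeq GRCm38.p6.

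The members and gene lists were chosen with earlier results of these data known. Named genes were the members, up to 4 called genes of largest change per list and comparison, the paralogs Uba1, Ube2l3, Herc3 and Herc4, then Ifnb1, Ifnar2, Stat2 and Egr1, and the 3 genes most correlated with each member, and some genes that this rule names are not reported here. Arih1, Ifnar1, Usp2, Umod and genes called only under an alternative were named after their values were seen. Alternatives were another pseudocount (0.1), filters, scalings, fold thresholds, a replicate block and leaving out each library.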

Additional observations from a re-analysis of the deposited data

How the results depend on the processing

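The calls of all 5 members in EGR1OV, against Sham and against H/R, held under every alternative run, except that Herc6 was not tested when a mean of at least 5 FPKM was required. Against Sham the log2 changes ran from 7.05 to 7.61 for Isg15, 2.94 to 3.92 for Uba7, 5.06 to 5.79 for Ube2l6, 2.84 to 4.45 for Herc6 and 6.10 to 7.07 for Usp18, with an adjusted p of at most 7.58e-07. In H/R against Sham, leaving out 1 library gave 0 to 2 members called. It gave 0 to 1 genes of interferon signalling (Socs1, 0.521, without Sham library 2) and 0 to 1 reported substrates (Pcna, -0.273, without Sham library 1). Without Sham library 1 the changes of Ube2l6 and Usp18 turned to -0.065 and -0.007, and without Sham library 2 that of Uba7 turned to 0.022, none of them called. Over these fits the H/R changes ranged from -0.071 to 0.022 for Uba7, -0.065 to 0.112 for Ube2l6 and -0.007 to 0.308 for Usp18. The difference in log2 ratio of Usp18 to Isg15 in EGR1OV against Sham ranged from -0.65 to -0.29, and adding 1 to each FPKM moved it from -0.50 to -1.06 and that in EGR1OV against H/R from -0.31 to -0.84. That of Herc6 in EGR1OV against H/R moved from -2.50 to -3.99 and in H/R against Sham from -0.64 to -0.40. The H/R differences in log2 ratio to Isg15 ranged from -0.625 to 0.018 for Ube2l6 and from -0.337 to 0.024 for Usp18, the positive values without Sham library 3. The causes were not tested.

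Requiring a mean of at least 5 FPKM, dropping the fold threshold or raising it to 2-fold moved the genes called from 2291 to 1315, 6417 and 484 in EGR1OV against Sham, from 594 to 372, 1635 and 11 in H/R against Sham, and from 2641 to 1520, 7135 and 489 in EGR1OV against H/R. With the 5 FPKM filter, which tests fewer genes, the calls among the further Isg15 enzymes and partners fell from 5 to 3 in each comparison with EGR1OV. In H/R against Sham, 1 interferon signalling gene was then called, and it was lower (Irf9, -0.287). Voom called 1001 genes in H/R, among them 2 of interferon signalling in opposite directions (Irf9 by -0.366 and Socs1 by 0.52). It also called 1 gene of the other ubiquitin-like systems (Atg10, -0.464), and median-ratio scaling called 1 of that list (Ube2f, 0.265). Median-ratio and quantile scaling moved the share of calls that were higher from 60.3% to 55.8% and 45.9% in EGR1OV against Sham, from 37.7% to 57.9% and 56.5% in H/R, and from 63.2% to 52.1% and 42.5% in EGR1OV against H/R. Same-numbered libraries did not deviate together (correlations from -0.021 to 0.062), and not every library correlated best with its own number. With the replicate number as a block, 5, 0 and 5 members were called in EGR1OV against Sham, H/R against Sham and EGR1OV against H/R, and 2309, 516 and 2654 genes. The spread between the Sham libraries of Isg15 and Usp18 limits what can be seen of them in H/R.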

Other observations

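Of 21 proteins reported as targets of Isg15, 3 of which are also in the interferon signalling list, 5 transcripts were called higher and none lower in EGR1OV than in Sham, with a median log2 change of 0.19 beside 0.017 over all genes tested. The antiviral GTPase Mx1 stood between 0.0167 and 0.0498 FPKM in Sham and between 9.57 and 10 in EGR1OV, a log2 change of 3.38. Mx1 is among the 5 called higher, and it passed the filter for testing only through EGR1OV. The RNA sensors Ifih1 and Ddx58 rose by 3.17 and 2.75 and the RNA-activated kinase Eif2ak2 by 2.15, from 9.87 to 46.9 FPKM on average. In H/R against Sham limma called 0 of the 21, beside 4.25% of all genes tested. At an unadjusted p under 0.05 there were 3, beside 28% of all genes tested, and voom called 0, beside 7.16%. Against H/R, 6 were called higher in EGR1OV, beside 11.9% of all genes tested, the additional gene being the replication clamp Pcna with 0.39.

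Sham library 2 held the highest Sham value of 174 of the 389 genes that were at least 2-fold higher in EGR1OV (44.7%), beside 30.7% of all genes tested. That list was chosen on the Sham libraries among others, so the share is a description.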
